A study of Mus musculus with 10 samples.

Results

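The genes of the unfolded protein response and of protein folding in the endoplasmic reticulum (ER) were examined in RNA sequencing libraries of mouse pancreatic islets. The 38 symbols were listed by name, by their known role in the pathway. Of these, 37 had a row among the 17945 named rows of the authors' deposited table, because Ero1lb and Ero1b are names of 1 gene and the table uses Ero1lb. A gene was tested where its value was at least 10 in at least 5 libraries, which kept 36 of the 37 members and 11711 genes in all. Derl3 was the member that did not pass. By role, the tested members were 17 ER folding genes, 6 genes of ER-associated degradation (ERAD), 6 genes for the stress sensors, Xbp1 and Wfs1, and 7 genes of the Atf4 and Ddit3 branch.

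The knockout group held 5 libraries from mice that carried the Pdx1-CreER driver together with floxed alleles of Grk5, a kinase gene for activated G protein-coupled receptors. The control group held 5 libraries from mice with floxed Grk5 alleles and no driver named. All mice were C57BL/6 and 18 weeks old, and all carried the floxed alleles. CreER is a recombinase that acts once an estrogen receptor ligand such as tamoxifen is given, and the Pdx1 promoter limits it to Pdx1-expressing cells, chiefly the insulin-producing β cells. Whether controls received the same ligand, the sex of the mice, and whether each library was 1 animal are not given in the sources used here. P-values therefore rest on the variation among these libraries, which may be technical.

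β cells make and fold very large amounts of proinsulin, which needs disulfide bonds, and they depend on ER chaperones to do so. When unfolded protein accumulates, the membrane sensors IRE1α, PERK and ATF6 respond. IRE1α splices Xbp1 mRNA and ATF6 is cut to release a transcription factor, and both routes switch on chaperone and degradation genes. PERK slows translation while favouring that of Atf4 mRNA, and ATF4 switches on genes of amino acid supply and, through Ddit3 (CHOP), of prolonged stress. Splicing of Xbp1, cutting of ATF6 and protein levels were not measured here.

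Known DNA elements of the ATF6, XBP1 and ATF4 routes were searched in the promoters, and the ERSE matches are shown in full because most of them lie in chaperone genes. Sequences were those RefSeq gives on GRCm38.p6 for the 250 bases before and 50 bases after a gene's start, and 33 of the 37 members had such a window, Derl2 having 2. The names without one were Manf, Hyou1, Derl1 and Atf6. The motifs searched on both strands were the ER stress element (ERSE, CCAAT and CCACG with any 9 bases between them), ERSE-II (ATTGG and CCACG with any 1 base between them), TGACGTGG of the unfolded protein response element, and TGATGNAA of the C/EBP-ATF response element (CARE). An exact ERSE was present in 8 of 15 ER folding genes with a window, 2 of 6 ERAD genes, 0 of 5 genes of the sensor group and 0 of 7 genes of the Atf4 and Ddit3 branch. Over all 32851 windows of the same length, 0.119% held it, a share of windows and not of genes. These were 39 windows, those of the members among them. Because the members were listed by their known role in this pathway, the comparison describes them and is not a test. The elements follow, written 5′ to 3′ on the strand that reads CCAAT first, with the letters the motif fixes in capitals.
Hspa5, chr2:34772025-34772043, plus strand: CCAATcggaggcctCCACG
Hsp90b1, chr10:86705638-86705656, minus strand: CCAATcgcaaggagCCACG
Hsp90b1, chr10:86705533-86705551, plus strand: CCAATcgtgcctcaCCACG
Calr, chr8:84847075-84847093, plus strand: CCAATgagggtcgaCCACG
Canx, chr11:50325800-50325818, minus strand: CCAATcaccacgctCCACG
Pdia6, chr12:17266491-17266509, plus strand: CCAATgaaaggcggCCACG
Dnajc3, chr14:118937827-118937845, plus strand: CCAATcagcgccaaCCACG
Creld2, chr15:88819520-88819538, minus strand: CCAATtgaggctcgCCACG
Ero1lb, chr13:12565682-12565700, minus strand: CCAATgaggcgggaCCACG
Syvn1, chr19:6046532-6046550, plus strand: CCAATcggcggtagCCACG
Derl3, chr10:75893242-75893260, minus strand: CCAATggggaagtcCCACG

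ERSE-II was found in Dnajb11 and Herpud1, against 0.0365% of all windows, and TGACGTGG in no member's window, against 0.676%. CARE was found in Chac1, Asns, Trib3 and Herpud1, that is in 3 of 7 genes of the Atf4 and Ddit3 branch and in none of the 15 ER folding genes with a window, against 3.97% of all windows. No match means only that these exact letters are not in these 300 bases. Herpud1 held CARE from 112 to 105 bases before its start and ERSE-II from 52 to 42 bases before it. To show 1 chaperone window, the Herpud1 window with both kinds of element, and 1 ATF4 target window, the full sequences of Hspa5, Herpud1 and Chac1 are given on the gene's own strand, with motif letters in capitals.
Hspa5: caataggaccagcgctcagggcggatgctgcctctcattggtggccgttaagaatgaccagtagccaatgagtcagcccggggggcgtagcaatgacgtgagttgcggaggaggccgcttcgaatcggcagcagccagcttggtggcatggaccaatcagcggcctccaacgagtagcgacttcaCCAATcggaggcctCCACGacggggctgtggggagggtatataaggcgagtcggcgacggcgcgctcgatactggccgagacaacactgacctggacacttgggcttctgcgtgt
Herpud1: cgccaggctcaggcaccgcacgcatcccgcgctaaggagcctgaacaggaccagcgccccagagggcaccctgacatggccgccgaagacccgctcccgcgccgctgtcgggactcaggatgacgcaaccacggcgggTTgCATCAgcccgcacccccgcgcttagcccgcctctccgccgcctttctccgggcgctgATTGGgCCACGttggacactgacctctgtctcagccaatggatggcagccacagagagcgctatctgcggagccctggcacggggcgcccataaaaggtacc
Chac1: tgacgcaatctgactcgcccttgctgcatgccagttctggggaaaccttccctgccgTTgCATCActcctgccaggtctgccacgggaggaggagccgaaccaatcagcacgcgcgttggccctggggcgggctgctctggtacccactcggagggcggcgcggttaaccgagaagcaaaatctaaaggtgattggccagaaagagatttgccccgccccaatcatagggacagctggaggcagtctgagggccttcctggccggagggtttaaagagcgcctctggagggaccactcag
The Hspa5 window is chr2:34771840-34772139, plus strand, the Herpud1 window chr8:94386179-94386478, plus strand, and the Chac1 window chr2:119350992-119351291, plus strand, all on GRCm38.p6.

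**Figure D1:**
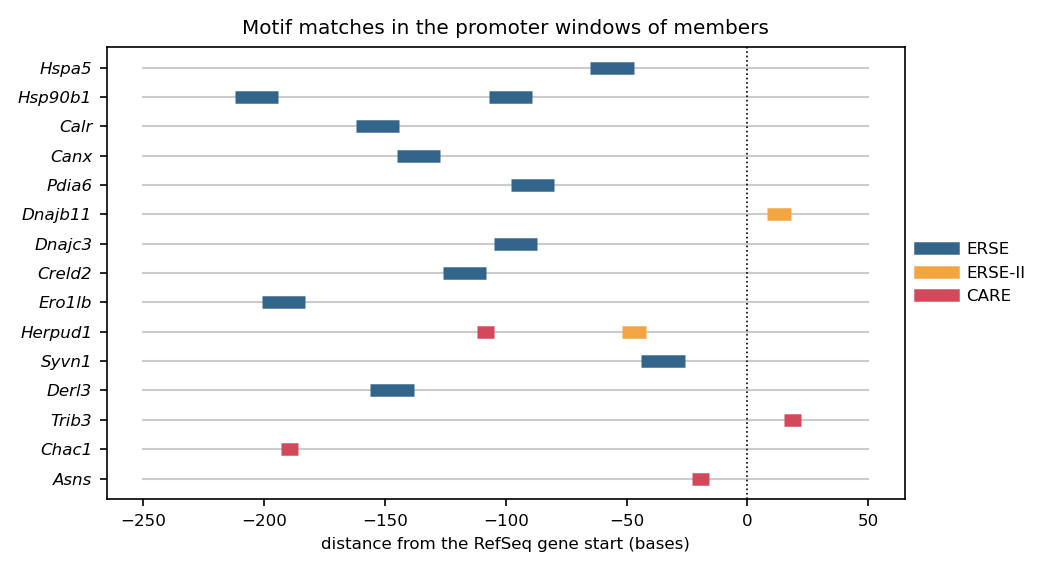
Positions of exact motif matches in the promoter windows of the 15 members that held any, by distance in bases from the RefSeq gene start (0, dotted line). Blue blocks are ERSE, orange blocks ERSE-II and red blocks CARE; ERSE blocks all lie before the start, from 212 to 26 bases upstream, and Hsp90b1 alone holds 2 of them.

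The values deposited are normalized counts, on a common scale but not whole reads, so the number of reads behind a value is not known. Their totals ran from 5534386 to 7358040 per knockout library and from 5962289 to 6793172 per control library. Genes above 0 numbered 10222 to 14632 in knockout libraries and 12423 to 14245 in control libraries, with knockout 1 the lowest. Grk5 itself had 269.8, 129.9, 94.4, 207 and 105.5 normalized counts in knockouts 1 to 5, against 197, 165, 387, 332 and 127.9 in controls 1 to 5. The groups overlapped: the mean was 161 ± 74.9 in knockouts and 242 ± 112 in controls (SD, n = 5 each). On the log2 scale Grk5 differed by -0.55 ± 0.42 (SE), and limma gave an adjusted p of 0.955. Esr1, whose sequence is part of CreER, had 2495 and 773.5 normalized counts in controls 2 and 5 and at most 10.5 in the other controls, against at least 1517 in every knockout. Controls 2 and 5 therefore go against their labels in this gene, and results are also given without them. The 10 β cell markers were above 0 in every library and all 10 had a log2 fold change below 0, with a median of -0.21. The 30 acinar markers, from the enzyme-secreting cells that surround islets and are themselves rich in ER, summed to 36623 to 98300 in knockouts and 24396 to 312631 in controls, and 25 of the 27 tested had a log2 fold change below 0. None of the 30 was at 0 in every library, 8 were at 0 in at least 1, and their part in the results below was not tested except where a fit with the acinar level as a covariate is named.

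No member passed the adjusted threshold of 0.05 by limma: 0 of 36, against 0% of all 11711 genes. The lowest adjusted p among them was 0.942, and the authors' deposited table likewise lists 0 members under 0.05 (lowest 0.784), against 0.136% of all genes with an adjusted p there. At an unadjusted p under 0.05 there was 1 of 36, Sel1l, against 5.01% of all genes, and 0 of 36 were lower, against 2.66% of all genes. The groups did not separate for any of the 36 members, where they did for 0.862% of all genes. The log2 fold change was below 0 for 23 of 36 members, against 52.4% of all genes, and their median was -0.05, against -0.03 over all genes. That count was 18 of 36 without knockout 1, where 48.5% of all genes were below 0. The count was 14 of 36 without controls 2 and 5, where 53.6% of all genes were below 0. In that fit 0 of 36 members passed the adjusted threshold, against 0.00908% of all genes, and 3 of 36 had an unadjusted p under 0.05, against 4.19%. In the main fit on all 10 libraries, the 95% limits lay within -0.5 and 0.5 for 15 of the 36 members and within -1 and 1 for 29. For those 29 a doubling or halving therefore lies outside the limits of the main fit. For the 15 so does a log2 difference of 0.5. These limits depend on how limma estimates the variance. Without the mean trend and robust estimates, Hspa5 kept its log2 fold change of -0.19, but its unadjusted limma p was 0.461, against 0.0813 in the main fit. Its limits are therefore wider there, and members within the limits were not counted in that fit. Smaller differences can lie within the limits. In whole islets, fewer cells of a type and less RNA per cell cannot be told apart.

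**Figure D2:**
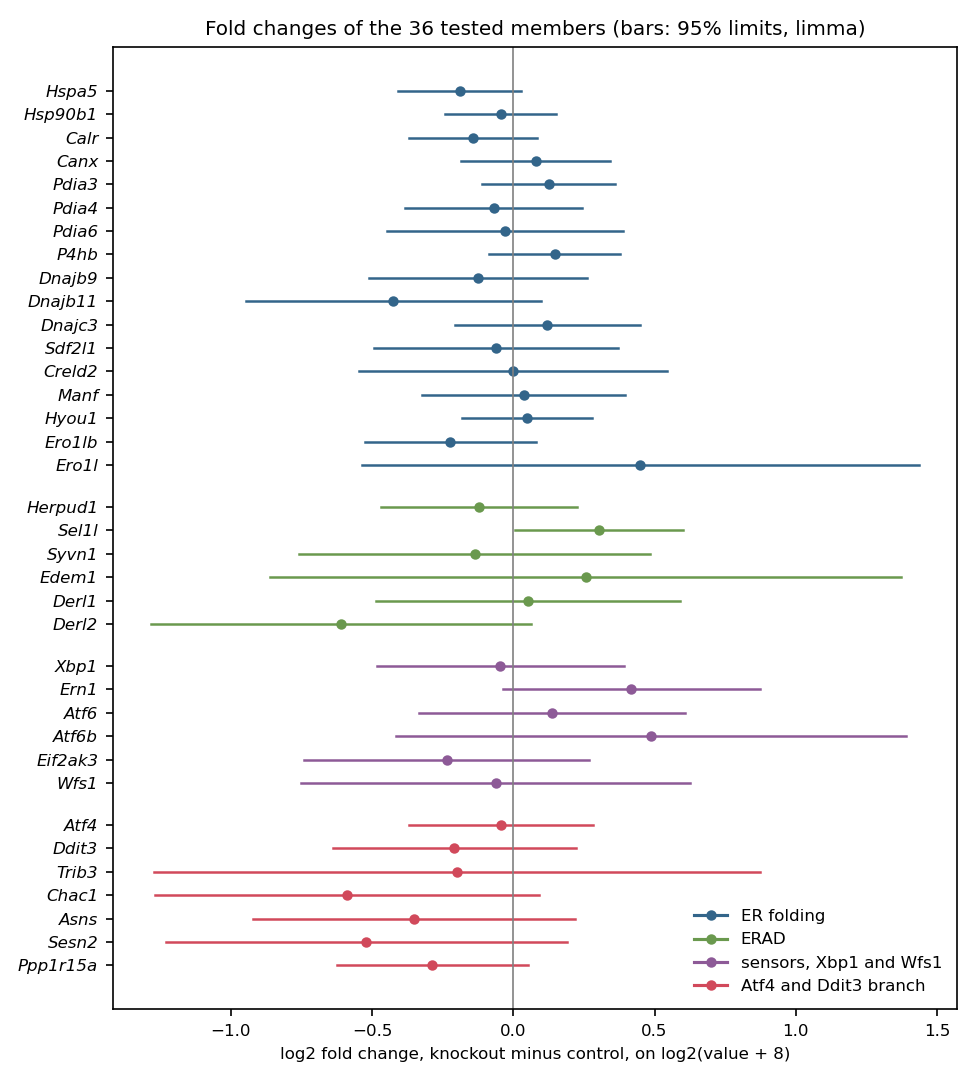
Log2 fold change, knockout minus control, of the 36 tested members on the log2(value + 8) scale, ordered by role and coloured by group; points are limma estimates and bars their 95% limits. Every bar except that of Sel1l crosses 0, and all 7 points of the Atf4 and Ddit3 branch lie left of 0.

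Levels spanned a wide range. Per kilobase of exon (all exons merged, GENCODE M21), Hspa5 averaged 6097 normalized counts over the 10 libraries, Hsp90b1 5773 and Calr 4219, and these were the highest members. P4hb (2557 per kb), Pdia3 (2314 per kb) and Herpud1 (1730 per kb) came next. The ranges of Hspa5 (4999 to 8429 per kb) and Hsp90b1 (4978 to 6855 per kb) overlapped over libraries. Among the stress branch genes Atf4 (1081 per kb), Ppp1r15a (991 per kb) and Ddit3 (802 per kb) were near the level of the mid-range chaperones, while Chac1, Asns, Trib3 and Sesn2 averaged 259, 232, 73.0 and 68.9 per kb. The sensor genes Eif2ak3, Ern1 and Atf6 averaged 192, 156 and 136 per kb. Members together made up 1.66% to 2.44% of a knockout library and 1.904% to 2.38% of a control library. Over the 10 libraries the coefficient of variation of the normalized count was lowest for Hyou1 (7.30%) and, among tested members, highest for Trib3 (62.2%).

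**Figure D3:**
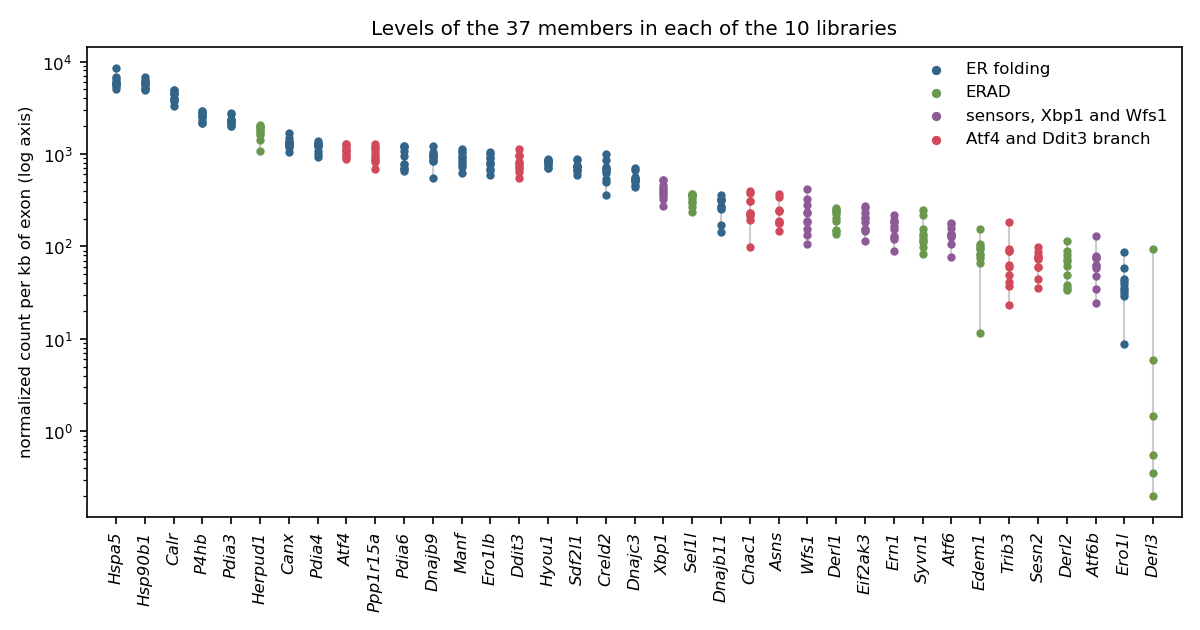
Normalized count per kilobase of merged exon (log axis) of the 37 members with a row, 1 point per library, sorted by mean and coloured by role; libraries at 0, which occur for Derl3 only, are not drawn. ER folding genes fill the high end with Hspa5 at a mean of 6097, no sensor ranks above 20, and Derl3 is last.

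None of the central chaperones differed past the threshold. Hspa5, encoding BiP, the ER Hsp70 that also holds the sensors inactive, had 25153, 24775, 23996, 21142 and 24649 normalized counts in knockouts 1 to 5, against 35648, 27264, 22849.9, 23671 and 28686 in controls 1 to 5. Knockout 4 lay below every control, controls 1, 2 and 5 lay above every knockout, and the other libraries overlapped. Knockout over control, this was a log2 fold change of -0.19 ± 0.10 (SE), or -0.09 without control 1, the highest library. Hsp90b1, encoding the ER Hsp90 GRP94, had 20621, 23300.1, 23703, 23999 and 22548 normalized counts in knockouts 1 to 5, against 27639, 24965, 20070.0, 20329 and 25590.0 in controls 1 to 5. Controls 1, 2 and 5 lay above every knockout and controls 3 and 4 below every one, and the log2 fold change was -0.05 ± 0.09 (SE), with 95% limits of -0.24 to 0.15. Calr and Canx encode the lectin chaperones calreticulin and calnexin, which hold glycoproteins while they fold. Calr had 9599, 12939, 11247, 13115 and 10899.6 normalized counts in knockouts 1 to 5, against 14013, 14322, 11061, 11463 and 12846 in controls 1 to 5, a log2 fold change of -0.14 ± 0.11 (SE), and -0.08 without knockout 1. Knockouts 1 and 5 lay below every control and the other knockouts lay among them. Canx averaged 6394 ± 1140 in knockouts and 5980 ± 281 in controls (SD, n = 5 each), with knockout 1 the lowest of the 10 libraries and knockouts 2, 3 and 4 above every control.

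The disulfide isomerase genes, whose products form and shuffle the bonds of proinsulin and other cargo, did not differ past the threshold. Means are given with the SD over the 5 libraries of a group. P4hb (protein disulfide isomerase itself) averaged 7667 ± 508 normalized counts in knockouts and 6961 ± 908 in controls, Pdia3 (ERp57, the partner of calreticulin and calnexin) 7599 ± 986 normalized counts in knockouts and 6929 ± 488 in controls, Pdia4 (ERp72) 2803 ± 392 normalized counts in knockouts and 2936 ± 349.6 in controls and Pdia6 (P5) 3437 ± 894 normalized counts in knockouts and 3508 ± 937 in controls. Their log2 fold changes ran from -0.07 for Pdia4 to 0.15 for P4hb, each with an adjusted p of at least 0.954 by limma, and every pair of groups overlapped. Pdia6 was the most variable of them, with the lowest values in knockouts 1 and 2, at 2582 and 2477, and in control 4, at 2630.

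The oxidases that recharge the isomerases differed in level. Ero1lb, the form found at high levels in the pancreas, had 5477, 4613, 5231, 4498 and 5130.2 normalized counts in knockouts 1 to 5, against 6008, 3952, 7039, 6604 and 5989.9 in controls 1 to 5. Control 2 lay below every knockout and the other 4 controls lay above every one. The log2 fold change of Ero1lb was -0.22 ± 0.14 (SE), and -0.39 without controls 2 and 5 (unadjusted p = 0.0116, adjusted p = 0.998 by limma). With the acinar level as a covariate it was -0.08. Ero1l (Ero1a), the widely expressed form, had 178, 186, 164, 459 and 226 normalized counts in knockouts 1 to 5, against 46, 233, 305, 155 and 206 in controls 1 to 5. Knockout 4 was the highest and control 1 the lowest, and the log2 fold change of 0.45 ± 0.47 (SE) was 0.04 without control 1. Per kb of exon, Ero1lb exceeded Ero1l in every library, by 7.79 to 25.3 times in knockouts and by 13.5 to 104 times in controls, the last in control 1.

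Co-chaperones of BiP included the member with the most negative log2 fold change of the folding group. Dnajb11 (ERdj3), which passes clients to BiP, had 552, 1022, 813, 460.1 and 1018 normalized counts in knockouts 1 to 5, against 1051, 1171, 847, 1038 and 879 in controls 1 to 5. Knockouts 1, 3 and 4 lay below every control, and knockouts 2 and 5 lay among them. This gave a log2 fold change of -0.42 ± 0.25 (SE), and -0.26 without knockout 4. Dnajb9 (ERdj4), which among other roles keeps IRE1α inactive, averaged 2264 ± 507 normalized counts in knockouts and 2433 ± 381 in controls, and Dnajc3 (p58IPK) averaged 2904 ± 323 normalized counts in knockouts and 2699 ± 560.4 in controls. Hyou1, whose product exchanges nucleotide on BiP, averaged 5867 ± 459 normalized counts in knockouts and 5667 ± 404 in controls, the steadiest member. Among the small stress-inducible folding factors, Sdf2l1 averaged 797 ± 113 normalized counts in knockouts and 829 ± 92.6 in controls. Creld2 averaged 878 ± 97.7 normalized counts in knockouts and 931 ± 355 in controls, and Manf averaged 3143 ± 547 normalized counts in knockouts and 3091 ± 665 in controls, and the groups overlapped for all 3. For Creld2 the controls ran from 492 (control 3) to 1364 (control 5), on both sides of the 5 knockouts. Over the 17 ER folding genes, 10 log2 fold changes were below 0 and 7 above, with a median of -0.03. The 8 with an ERSE in their window had a median of -0.04 and the 7 with a window and no ERSE -0.06.

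ERAD genes encode the machinery that carries failed proteins back to the cytosol for destruction. Sel1l, the adaptor of the membrane ubiquitin ligase complex, had 3129, 3081, 3139, 2891 and 3066 normalized counts in knockouts 1 to 5, against 2652, 2520.1, 2015, 2293 and 3026 in controls 1 to 5. Knockouts 1, 2, 3 and 5 lay above every control and knockout 4 lay below control 5 only. Sel1l had a log2 fold change of 0.30 ± 0.14 (SE), with an unadjusted p of 0.0469 by limma, and 0.29 is listed for it in the authors' deposited table (adjusted p = 0.784). The unadjusted p was 0.236 with limma's variances drawn toward 1 common value, without the mean trend and robust estimates. The 5 knockouts had a coefficient of variation of 3.26%, against 15.2% in controls. Syvn1, the ligase (HRD1) that works with Sel1l, averaged 651 ± 245 normalized counts in knockouts and 719.7 ± 289 in controls and had the opposite sign, at -0.14 ± 0.30 (SE), which turned to 0.18 without controls 2 and 5.

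Derl2, which encodes a membrane channel component of the same complex, had 399, 272, 586, 288 and 489 normalized counts in knockouts 1 to 5, against 656, 308, 727, 566 and 928 in controls 1 to 5. Knockouts 2 and 4 lay below every control, controls 2 and 4 lay among the knockouts and controls 1, 3 and 5 above every one, and the log2 fold change was -0.61 ± 0.32 (SE), the most negative of all members. The log2 fold change of Derl2 was -0.72 without controls 2 and 5 (unadjusted p = 0.0470 by limma) and -0.35 with the acinar covariate. Its relative Derl1 averaged 695 ± 184 normalized counts in knockouts and 663 ± 139.5 in controls. Herpud1, a stress-induced scaffold of the complex, averaged 3889 ± 814 normalized counts in knockouts and 4182 ± 632 in controls, with knockout 1 at 2509 as the lowest library and the other knockouts at 3897 to 4573. Edem1, which removes mannose to mark glycoproteins for disposal, had 74.8 in control 1 and 425 to 1005 in the other 9 libraries. Its log2 fold change was 0.26 ± 0.52 (SE) and -0.36 without control 1. Derl3, listed at 0 in knockouts 1 and 2 and controls 2 and 4, had 187.7, 11.8 and 1.1 in knockouts 3, 4 and 5, and 2.9, 0.4 and 0.7 in controls 1, 3 and 5. It was not tested. Knockout 3, with the highest Derl3, also had the highest summed acinar markers of the knockouts (98300, against 36623 to 52539 in the others), while control 4, with the highest sum of all libraries (312631), listed Derl3 at 0. The part of acinar RNA in this value was not tested.

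The sensors themselves showed no difference past the threshold. Ern1, encoding IRE1α, had 1797, 1375, 1561, 1486 and 1049.5 normalized counts in knockouts 1 to 5, against 991, 1486, 1038, 1252 and 733 in controls 1 to 5. Knockouts 1 and 3 lay above every control, control 5 was the lowest library, and the log2 fold change was 0.42 ± 0.22 (SE), or 0.28 without control 5. Eif2ak3, encoding PERK, had 1223, 1389, 1103, 682 and 900.0 normalized counts in knockouts 1 to 5, against 1633, 1579.8, 881, 1232 and 936 in controls 1 to 5. Knockout 4 was the lowest and controls 1 and 2 were the highest, and the log2 fold change was -0.24 ± 0.24 (SE). Atf6 averaged 1335 ± 381 normalized counts in knockouts and 1169 ± 111 in controls, with knockouts 1, 2 and 3 above every control and knockout 4 below every control. Its relative Atf6b averaged 208 ± 88.6 normalized counts in knockouts and 149.7 ± 65.2 in controls. Xbp1, whose whole-gene value does not separate spliced from unspliced mRNA, averaged 1318 ± 371 normalized counts in knockouts and 1323 ± 136 in controls, with 2 knockouts above every control and 2 below. Wfs1, encoding wolframin, an ER membrane protein that is mutated in human Wolfram syndrome, ran from 401 to 1230 in knockouts and from 506 to 1574 in controls.

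**Figure D4:**
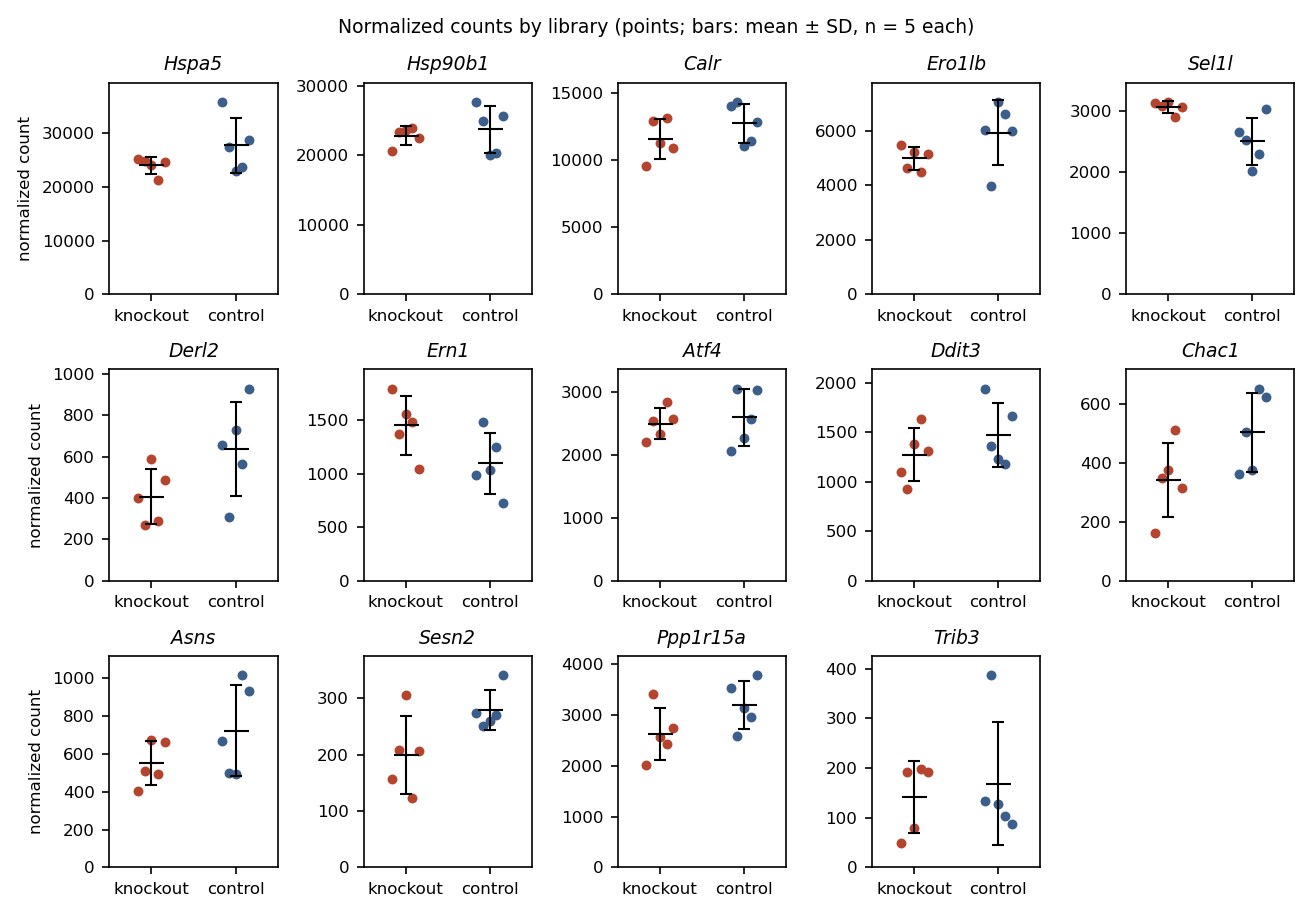
Normalized counts of 14 members by library, knockout left and control right; points are libraries and bars the mean ± SD (n = 5 each), on axes that start at 0. Sel1l shows 5 knockouts at 2891 to 3139 against controls at 2015 to 3026, while Chac1, Sesn2 and Ppp1r15a show knockouts reaching below the lowest control.

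All 7 members of the Atf4 and Ddit3 branch had a log2 fold change below 0, against 52.4% of all genes, with a median of -0.29 against -0.03 over all genes, and none passed the threshold. Without controls 2 and 5 it was 5 of 7 (median -0.30), because Atf4 and Trib3 turned, and without knockout 1 it was also 5 of 7 (median -0.20), again because of Atf4 and Trib3. In the fit without knockout 1, 48.5% of all genes were below 0 and their median was 0.02. With the acinar covariate it was 7 of 7 (median -0.21). Atf4, the transcription factor gene controlled mainly at translation, had 2201, 2540.0, 2339, 2839.5 and 2581 normalized counts in knockouts 1 to 5, against 2060.2, 3056, 2268, 2572 and 3036 in controls 1 to 5. Controls 2 and 5 lay above every knockout and control 1 below every one. The log2 fold change of Atf4 was -0.04 ± 0.15 (SE), and 0.12 without controls 2 and 5. Ddit3, encoding CHOP, had 1102, 933, 1385, 1633 and 1314 normalized counts in knockouts 1 to 5, against 1940.0, 1359, 1230.3, 1177 and 1660.3 in controls 1 to 5. Knockouts 1 and 2 lay below every control, control 1 was the highest, and the log2 fold change was -0.21 ± 0.21 (SE).

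Among the targets, Chac1 had the most negative value and Trib3 the least. Chac1, whose product degrades glutathione, had 163, 349, 376, 513 and 316 normalized counts in knockouts 1 to 5, against 364, 506, 375, 652 and 623 in controls 1 to 5. Knockouts 1, 2 and 5 lay below every control and controls 4 and 5 above every knockout. Chac1 had a log2 fold change of -0.59 ± 0.32 (SE), the unadjusted p 0.0861 by limma, and the value -0.35 without knockout 1. Sesn2, a sestrin gene of the nutrient stress response, had 156, 208, 305, 122 and 207 normalized counts in knockouts 1 to 5, against 273, 252, 259, 270.2 and 341 in controls 1 to 5. Knockout 3 lay among the controls and the other 4 knockouts below every one. For Sesn2 the log2 fold change was -0.52 ± 0.34 (SE), with 95% limits of -1.23 to 0.19. Ppp1r15a (GADD34), whose product restores translation after PERK signalling, had 2020.5, 3409, 2554, 2426 and 2739 normalized counts in knockouts 1 to 5, against 3525, 2578, 3123, 2960.3 and 3777 in controls 1 to 5. Knockouts 1, 3 and 4 lay below every control and knockout 2 exceeded controls 2, 3 and 4, and the log2 fold change was -0.29 ± 0.16 (SE). Asns, asparagine synthetase, had 403, 512, 672, 495 and 665 normalized counts in knockouts 1 to 5, against 669, 502, 494, 1016 and 931 in controls 1 to 5. Controls 4 and 5 lay above every knockout and knockout 1 below every control, with a log2 fold change of -0.35 ± 0.27 (SE), and -0.11 with the acinar covariate. Trib3, a pseudokinase gene that CHOP and ATF4 induce, had 49, 192, 79, 199 and 192 normalized counts in knockouts 1 to 5, against 133, 387, 128, 104 and 88.4 in controls 1 to 5. Control 2 stood far above the rest and the log2 fold change was -0.20 ± 0.51 (SE).

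Knockout 1, the library with fewest genes above 0, was the lowest of all 10 for 4 of the 7 branch members. Over all tested members it was the lowest for 8, as was knockout 4. The share of all genes for which knockout 1 was the lowest was not computed, so the count cannot be read as particular to the branch. The part of the depth of knockout 1 in these values was not tested.

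Chaperone genes and Atf4 and Ddit3 branch genes were then set against each other within each library. The mean log2(value + 8) of the 17 ER folding genes was 11.64, 11.76, 11.82, 11.79 and 11.79 in knockouts 1 to 5, against 11.77, 11.77, 11.64, 11.73 and 11.98 in controls 1 to 5. That of the 7 branch genes was 8.79, 9.40, 9.38, 9.45 and 9.47 in knockouts, against 9.56, 9.71, 9.39, 9.63 and 9.77 in controls. The ER folding means overlapped widely, while in the branch knockouts 1 and 3 lay below every control and the other knockouts lay between the lowest control, control 3, and the next. The difference between both means, which does not depend on the scaling of a library except through the pseudocount, was 2.86, 2.36, 2.43, 2.34 and 2.33 in knockouts, against 2.21, 2.06, 2.25, 2.10 and 2.21 in controls. Every knockout lay above every control. The mean was 2.46 ± 0.22 in knockouts and 2.17 ± 0.08 in controls (SD, n = 5 each), a difference of 0.30 on the log2 scale, or 0.20 without knockout 1 and 0.28 without controls 2 and 5. The members were chosen with earlier results of these data known, so no p is given for it. With Sesn2 left out of the branch, the lowest knockout (1.94) lay below the highest control (2.03). Without Ddit3, Chac1 or Ppp1r15a the lowest knockout lay just above the highest control (2.438 against 2.435, 2.141 against 2.136 and 2.639 against 2.62). Without Atf4, Trib3 or Asns the values were 2.64 against 2.544, 1.943 against 1.874 and 2.26 against 2.232. The separation is therefore narrow and rests in part on single genes. It also belongs to the members chosen, whose median log2 fold changes were -0.03 (ER folding) and -0.29 (branch). In the wider lists described below the order was the opposite. The median was -0.18 over 33 other ER folding genes and -0.04 over 39 other ATF4 target and amino acid response genes. The ERAD mean was 9.98 ± 0.15 in knockouts and 10.03 ± 0.29 in controls, and the sensor mean 9.74 ± 0.20 in knockouts and 9.62 ± 0.14 in controls, both with overlapping groups.

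**Figure D5:**
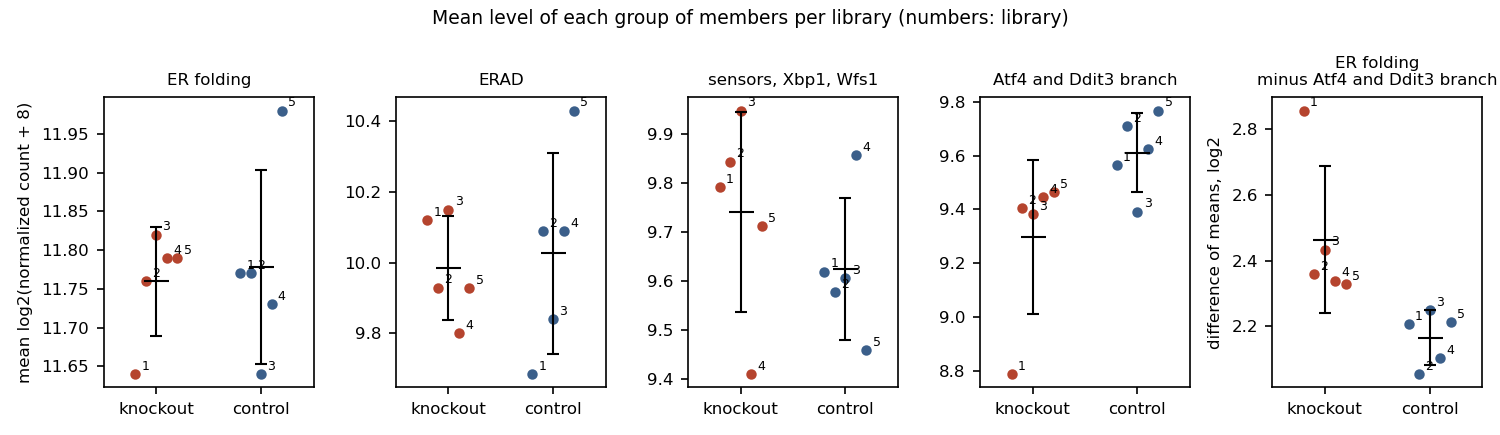
Mean log2(normalized count + 8) per library of each group of members, and in the last panel the ER folding mean minus the Atf4 and Ddit3 branch mean, knockout left and control right. Points are libraries with their numbers and bars the mean ± SD (n = 5 each); axes do not start at 0. In the last panel the knockouts sit at 2.33 to 2.86, above the controls at 2.06 to 2.25.

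The rest of the pathway was described through 5 further lists, and no gene of them passed the adjusted threshold (0 by limma, lowest adjusted p 0.942). Over all genes tested, 52.4% had a log2 fold change below 0, with a median of -0.03. Of 39 other ATF4 target and amino acid response genes, 22 had a log2 fold change below 0 and 17 above, with a median of -0.04, against -0.29 for the 7 branch members. Its lowest p belonged to Aldh18a1, a proline synthesis gene, with 278, 219, 471, 470.4 and 290.1 normalized counts in knockouts 1 to 5, against 899, 286, 998, 801 and 901 in controls 1 to 5. Knockouts 1 and 2 lay below every control, control 2 lay among the knockouts and the other controls lay above every knockout. Aldh18a1 differed by -1.10 ± 0.35 (SE) on the log2 scale (limma, unadjusted p = 0.00533). Next were the glycine transporter gene Slc6a9, at 3.48 ± 5.70 in knockouts and 31.2 ± 22.2 in controls, and Slc3a2, the shared chain of amino acid exchangers, at 716 ± 180.0 normalized counts in knockouts and 952 ± 87.3 in controls.

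Of 33 other ER folding genes, 22 were below 0 and 11 above, where 52.4% of all genes were below 0. Their median was -0.18, against -0.03 both over the 17 ER folding members and over all genes. The prolyl isomerase gene Fkbp11 had 291, 151, 237, 153 and 378 normalized counts in knockouts 1 to 5, against 116, 118, 126, 122 and 109.7 in controls 1 to 5, and every knockout lay above every control. Fkbp11 differed by 0.90 ± 0.38 (SE) on the log2 scale (limma, unadjusted p = 0.0311). Erp44, which retains client proteins in the early secretory pathway, averaged 600.5 ± 193 normalized counts in knockouts and 937 ± 317 in controls, and Ppic, a cyclophilin gene listed at 0 in 3 knockouts, averaged 4.06 ± 7.82 in knockouts and 16.1 ± 7.998 in controls. Of 34 translocon, signal peptidase and glycosylation genes, 16 were below 0 and 18 above, with a median of 0.02. Sec11c, a catalytic subunit of signal peptidase, had 882, 839, 1118, 1086 and 1232 normalized counts in knockouts 1 to 5, against 813, 636, 728, 773 and 707 in controls 1 to 5, again with every knockout above every control and a log2 fold change of 0.48 ± 0.20 (SE). Ssr1, a translocon-associated protein gene, averaged 924 ± 166 normalized counts in knockouts and 1275 ± 308 in controls, and the signal peptidase gene Spcs2 averaged 108 ± 79.7 normalized counts in knockouts and 182 ± 58 in controls. Fkbp11 and Sec11c were the only 2 genes in the 5 lists whose groups did not overlap, of 153 tested, where 0.862% of all genes did not.

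Of 26 other ERAD genes, 13 were below 0 and 13 above, with a median of -0.01. Man1a, a mannosidase gene, averaged 787 ± 277 normalized counts in knockouts and 408 ± 196 in controls, Ngly1, which strips glycans from exported proteins, 168 ± 129.9 normalized counts in knockouts and 71.2 ± 63 in controls, and Tmub1 6.67 ± 9.14 in knockouts and 50.5 ± 41.3 in controls. Of 21 genes around the sensors, 12 were below 0 and 9 above, with a median of -0.10. The named genes there were the pro-apoptotic Bax, at 68.3 ± 73.4 in knockouts and 9.20 ± 20.6 in controls and listed at 0 in knockout 4 and in 4 controls, Map3k5 (ASK1), at 490.5 ± 168 normalized counts in knockouts and 322 ± 103 in controls, and Creb3, at 216 ± 50.1 normalized counts in knockouts and 358 ± 181 in controls.

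How members varied together over the 10 libraries was examined against Hspa5 and against Ddit3, with 35 correlations of log2(value + 8) in each family. None had an adjusted permutation p under 0.05. With Hspa5, Hsp90b1 had the highest r, 0.69, with Spearman's rho 0.64 (permutation p = 0.0203 and p = 0.0548, adjusted p = 0.355 and p = 0.614), and r was 0.80 without the 2 libraries farthest from the Hspa5 median, control 1 and knockout 4. The lowest r was that of Ero1l, -0.84, with rho -0.43 (permutation p = 0.00858 and p = 0.219, adjusted p = 0.300 and p = 0.770), and it rests on those libraries, since r was -0.01 without them. With Ddit3, Pdia6 had the highest r, 0.80, with rho 0.84 (permutation p = 0.0051 and p = 0.00389, adjusted p = 0.178 and p = 0.136), and r was 0.72 without control 1 and knockout 2. Hsp90b1 followed, with r = 0.71 and rho = 0.79 (permutation p = 0.0202 and p = 0.00885, adjusted p = 0.353 and p = 0.144). The median r with Ddit3 was 0.21 over the ER folding genes and 0.22 over the other 6 branch genes. Within-group correlations would rest on 5 libraries each and were not computed; with values taken as deviations from the group means, r was 0.84 for Ddit3 with Pdia6 and 0.71 for Hspa5 with Hsp90b1.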

How the data were processed

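RNA from islets was depleted of ribosomal RNA and sequenced in pairs from stranded, randomly primed libraries, per the labels' protocols. The submitters' processing notes name STAR, HTSeq and DESeq2, without their roles, and name no genome build. The authors deposited 1 normalized count signal per gene and library. At most 37.0% of a library's values above 0 were whole multiples of its commonest low value (tolerance 0.01). That share covers high and low values alike, and reads were not recovered. The authors' deposited table also holds their log2 fold change, its test score and the p-values.

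Values were tested here with limma 3.58.1 on log2(value + 8), with mean trend and robust variances, all 10 libraries and no covariate, for genes with at least 10 in at least 5 libraries. P-values were adjusted over all 11711 genes (Benjamini-Hochberg, threshold 0.05). A fold change on this scale understates the change of low genes. The test was checked on simulated data with changes larger than any member's estimate. That check does not cover differences of the members' size. Alternatives were other pseudocounts, filters, scalings and variance estimates, an acinar covariate, and libraries left out. Members and lists were chosen with earlier results of these data known. Genes outside the members were named as the 3 with the lowest p of each list. The unnamed row of the table (at most 0.0251% of a library) was left out.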

Additional observations from a re-analysis of the deposited data

Results flagged for a closer look

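In 8 of the 74 groups of 5 libraries examined (37 members in each genotype), 1 library stood apart from the other 4 by more than Dixon's 95% critical value. For normally distributed values chance flags about 1 in 20 groups. The groups here reuse the same 10 libraries and were not checked for normality, so the count cannot be read as an excess over that rate. In knockouts, Hspa5 was 21141.7 normalized counts in knockout 4, against 23995.5 to 25152.7 in the other knockouts. Ero1l was 458.7 in the same library, against 164.5 to 225.8. Derl3 was 187.7 in knockout 3, against 0 to 11.8. In controls, control 5 was high for Dnajb9 (3073.3, against 2141.5 to 2407.7), for Dnajc3 (3658.2, against 2246.9 to 2628.5) and for Sesn2 (340.8, against 251.5 to 273.2). Trib3 was 387.0 in control 2, against 88.4 to 133.2, and Derl3 was 2.9 in control 1, against 0 to 0.7. Controls 2 and 5 are the libraries with high Esr1.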

How the results depend on the processing

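No member passed the adjusted threshold under any of the 21 alternatives, and the lowest adjusted p of a member was 0.83. Over all genes 1 passed without the mean trend and robust variance estimates, 1 without controls 2 and 5, and 0 to 1 with 1 library left out (1 without control 1). Members below 0 numbered 14 without controls 2 and 5, and 18 without knockout 1. For the median log2 fold change, sensors, the values ran from -0.0232 without knockout 3 to 0.22 without knockout 4. The correlations past the adjusted threshold with Ddit3 numbered 1 with upper quartile scaling, and 0 to 1 with 1 library left out for Hspa5 and for Ddit3.

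The sign of the log2 fold change turned with equal totals for Creld2 (0.0204), and with upper quartile scaling for Manf (-0.0255), Hyou1 (-0.013) and Derl1 (-0.0097). It turned with quality weights for Hsp90b1 (0.0318), Pdia4 (0.0224), Pdia6 (0.12), Creld2 (0.17), Herpud1 (0.0293), Xbp1 (0.084) and Wfs1 (0.0459), and with the acinar covariate for Pdia6 (0.0254), Xbp1 (0.0411) and Wfs1 (0.19). Without controls 2 and 5 it turned for Hsp90b1 (0.024), Pdia4 (0.00306), Pdia6 (0.042), Sdf2l1 (0.0187), Creld2 (0.25), Syvn1 (0.18), Wfs1 (0.0371), Atf4 (0.12) and Trib3 (0.0377). With 1 library left out, it turned at least once, with these lowest and highest values, for Hsp90b1 (-0.10 to 0.0131), Canx (-0.000863 to 0.17), Pdia4 (-0.14 to 0.00839), Pdia6 (-0.14 to 0.0782), Dnajb9 (-0.20 to 0.0367), Sdf2l1 (-0.13 to 0.00269), Creld2 (-0.21 to 0.16), Manf (-0.0836 to 0.11), Herpud1 (-0.20 to 0.0294), Syvn1 (-0.33 to 0.0663), Edem1 (-0.36 to 0.55), Derl1 (-0.0756 to 0.17), Xbp1 (-0.15 to 0.0857), Wfs1 (-0.23 to 0.18), Atf4 (-0.12 to 0.0191) and Trib3 (-0.37 to 0.14). The cause was not tested. The other 19 tested members turned under none of these settings.

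No paired analysis was made, because the labels used here give no pairing of libraries. The library numbers follow the order of the samples and mark no pairs. Depth per library is unknown, and the limits of low members such as Trib3, Sesn2 and Ero1l are wide.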
